A study of Homo sapiens with 15 samples.

Results

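Mitochondria import nearly all of their proteins through a set of membrane translocases, and 38 genes of this machinery and of the outer membrane channels beside it were followed here in HCT116 cells. The genes were chosen by symbol and grouped by the role of their products, and all 38 were matched in the deposited table. Each was kept if it reached at least 1 TPM (a length-corrected abundance that counts a gene's transcripts as a share of all those in the library) in at least 3 of the 15 libraries. All 38 did so, as did 14899 of the 60664 genes in the table. HCT116 is an established human colorectal carcinoma line, labelled wild type in every group. Cells were left untreated (CTR) or received 0.0154 mg/mL of pure hydroxytyrosol (HTyr), the main phenolic compound of olive mill waste, or of an extract of oil production waste products (OPWPs) made in Apulia (AE), in Tuscany (TE) or in Sicily (SE), for 72 h. RNA was sequenced from 3 libraries in each of the 5 groups, and each group is a model of 1 cell line at 1 dose and 1 time.

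Libraries of a group are numbered as biological replicates in the titles. The study describes its data in general as coming from independent experiments and does not say for the sequencing whether each library had its own culture, so p-values measure only how these libraries scatter, which may be technical in part. In the titles, the bracketed codes of the TE and SE libraries bear each other's letter. The groups used here follow the sample descriptions, which match the region named in each title, the letter that heads each column of the deposited table and the names the study gives the same values. The bracketed codes alone differ. TPM keep no depth, so the depth of each library is unknown. Of 11 epithelial markers, 9 were at 1 TPM or more in every library, and VIL1 and CDX1 were under 1 TPM in all. The epithelial markers summed to 4652 to 4744 TPM in the CTR libraries and to 2535 to 3496 TPM in the treated ones. Among markers of other cells, 6 of 7 leukocyte, 4 of 4 endothelial and 5 of 6 fibroblast markers stayed under 1 TPM in every library, including PTPRC, PECAM1 and COL1A2. The leukocyte list summed to 16.9 to 17.6 TPM in the CTR libraries and 1.80 to 7.24 TPM in the treated ones, nearly all of it CD68, and the fibroblast list to 6.34 to 8.01 and 4.47 to 9.02 TPM, nearly all of it COL1A1. Cytosolic ribosomal protein genes held 26.8% to 29.2% of the TPM in the CTR libraries and 19.8% to 25.6% in the treated ones, and mitochondrially encoded genes held 15.6% to 18.7% and 17.0% to 21.5%. The part of these shares in the results was not tested.

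Precursor proteins made in the cytosol are recognised by receptors of the TOM complex, cross the outer membrane through the TOMM40 channel, and are then sorted. Small TIM chaperones carry hydrophobic precursors across the intermembrane space, the TIM23 channel and its motor pull precursors with a presequence into the matrix, the TIM22 translocase inserts carriers into the inner membrane, and the SAM complex folds β-barrels such as TOMM40 and the VDAC channels into the outer membrane. In tumour cells as in other cells, the genes are all encoded in the nucleus, and their promoters are known for sites of the factors NRF1, ETS (GABP) and YY1.

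Promoter sequences are shown for 4 members that bear on the results. TIMM13 was higher with every treatment, and TIMM21 was higher with SE than with AE and HTyr. TOMM20 and TOMM7 are TOM subunits that met both the p and the fold threshold given below with no treatment. For TOMM20 with SE, the adjusted p alone was under 0.05, with a lower level. The sequences are from RefSeq on GRCh38.p14, cover the 100 bases before the annotated start and hold no annotated exon base. Capitals mark a match to the ETS letters CCGGAAG (TIMM13 and TOMM20) or the NRF1 letters, GCGCA, any base, then GCGC (TOMM7), on either strand. An NRF1 match in TOMM20 begins at -101, just outside the stretch, so the part shown is in lower case.
TIMM13, chr19:2427587-2427686, minus strand: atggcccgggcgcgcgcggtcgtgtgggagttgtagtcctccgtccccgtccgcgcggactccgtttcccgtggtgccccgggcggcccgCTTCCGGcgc
TIMM21, chr18:74148423-74148522, plus strand: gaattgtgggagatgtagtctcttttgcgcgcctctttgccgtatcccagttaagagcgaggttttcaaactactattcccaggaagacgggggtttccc
TOMM20, chr1:235128838-235128937, minus strand: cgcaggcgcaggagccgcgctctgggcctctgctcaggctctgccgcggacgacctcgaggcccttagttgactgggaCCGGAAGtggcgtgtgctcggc
TOMM7, chr7:22822850-22822949, minus strand: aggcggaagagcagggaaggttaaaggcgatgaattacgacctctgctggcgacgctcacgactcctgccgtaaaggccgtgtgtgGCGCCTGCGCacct

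Of the 38 members, 34 had a RefSeq promoter entry, with 41 windows from 250 bases before to 50 bases after a start. The members without an entry were GRPEL1, TIMM8B, TOMM5 and VDAC3. On either strand, the ETS letters were found in 15 of the 41 windows (36.6%), against 10.3% of all 35116 windows in the table and 17.0% of the 15290 windows of tested genes. The NRF1 letters were in 8 windows (19.5%, against 5.78% and 9.99%), the YY1 letters AAGATGGCG in 3 (7.32%, against 1.75% and 3.42%) and the E-box letters CACGTG in 5 (12.2%, against 7.26% and 9.32%). No match overlapped a match to another of these motifs. TOMM20, TOMM34, TIMM29 and OXA1L held both the ETS and the NRF1 letters, and TOMM40L, PMPCA and TIMM50 held the YY1 letters. These shares are descriptions of sequence, and members with the same letters had different values, TIMM13 at a log2 fold change of 1.05 and TOMM20 at -0.12 in the mean of the 4 treatments.

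Exposure to the 4 treatments was first compared with no treatment over all members. The call for a gene needed a limma p under 0.05 after Benjamini-Hochberg adjustment over all tested genes and a fold change over 1.5 in either direction. Fold changes are of TPM after 0.5 was added to each value, so those of genes at low TPM come out smaller than they were. With SE, 9 members rose and 1 fell, where 17.0% of all tested genes rose and 11.0% fell. With AE, 6 members rose (background 10.7%) and 0 fell (background 5.81%), and at an unadjusted p under 0.05 limma gave 2 members lower (17.2% of all genes). With TE, 3 rose and 1 fell, against 7.46% and 5.26% of all genes, and with HTyr, 3 rose and 1 fell, against 7.80% and 8.45%. In the mean of the 4 treatments, 6 rose and 1 fell, against 10.4% and 7.43%, 17.9% in either direction. The 6 were TOMM40, TOMM40L, TOMM5, TIMM8B, TIMM13 and VDAC3, and the member that fell was TIMM9. As shares of the 38 members, those that rose came to 23.7% with SE, 15.8% with AE, 7.89% with TE and 7.89% with HTyr, so that with TE and HTyr the share was near that of all genes. Under median-ratio scaling of the libraries the counts were 3 higher and 1 lower with AE and 8 and 3 with SE. Over all genes the same scaling turned 1601 higher and 865 lower calls with AE into 1190 and 1178, and 2532 and 1636 with SE into 1958 and 2108. The 4 comparisons share the 3 CTR libraries. In RNA from whole cultures, fewer cells of a type and less RNA per cell cannot be told apart.

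Many members passed the adjusted p without reaching the fold threshold. At an adjusted p under 0.05 alone, 25 members were higher with SE, 21 with AE, 18 with TE and 19 with HTyr, where 31.5%, 25.8%, 20.3% and 17.9% of all genes were. As shares of the 38, these were 65.8%, 55.3%, 47.4% and 50%. By the same rule 5, 1, 2 and 3 members were lower, against 20.5%, 14.0%, 13.7% and 21.5% of all genes. For the treatment mean, 23 members were higher and 2 lower, against 28.6% and 21.3%. All 38 members had a mean of at least 5 TPM over the libraries, as did 10389 of the 14899 tested genes. The shares are thus not matched for abundance. The median log2 fold change of the members was 0.41 with SE, 0.27 with AE, 0.19 with TE and 0.19 with HTyr, beside 0.09, 0.09, 0.05 and -0.04 over all tested genes. The log2 fold change was above 0 in 31, 33, 29 and 29 of the 38. In 19 members all 12 treated libraries lay above the 3 CTR libraries (15.3% of all genes), and in 1, TIMM9, all lay below them (11.8% of all genes).

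**Figure D1:**
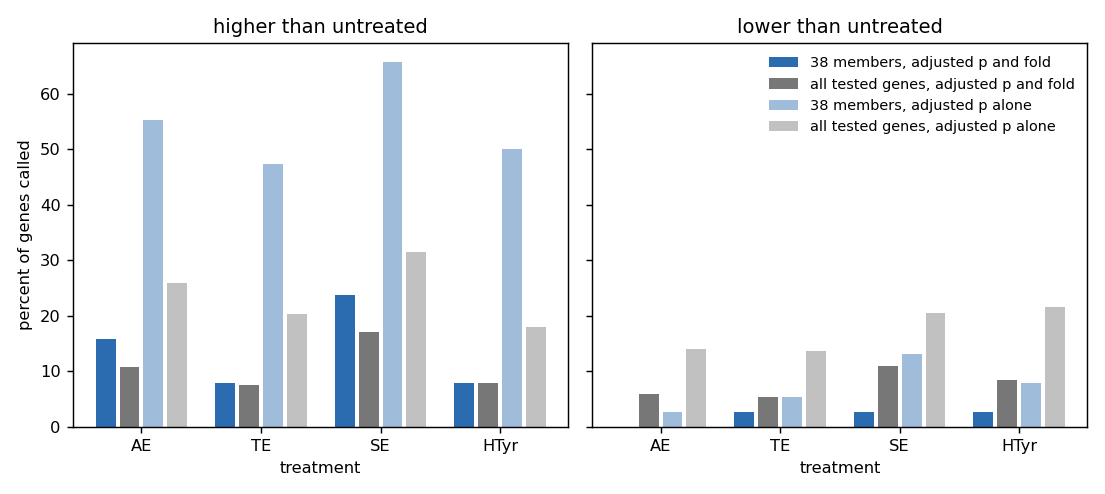
Percent of the 38 members and of all 14899 tested genes called higher (left) or lower (right) than CTR with each treatment, by adjusted p and fold (dark bars) or by adjusted p alone (light bars). Members and all genes were not matched for abundance. By adjusted p alone, the members called higher made up 47.4% to 65.8%, against 17.9% to 31.5% of all genes, while by adjusted p and fold the TE and HTyr bars in the left panel are level with those of all genes and in the right panel lie below them, at 2.63% against 5.26% and 8.45%.

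Together the members held 0.339% ± 0.0109 (SD, n = 3) of the TPM in the CTR libraries, 0.415% ± 0.0124 with SE, 0.384% ± 0.0138 with AE, 0.362% ± 0.0113 with TE and 0.367% ± 0.0150 with HTyr. The CTR libraries ranged from 0.326% to 0.346% and the treated libraries from 0.349% to 0.426%, without overlap but with a small gap, and no test was made of this sum. With cytosolic ribosomal protein and mitochondrially encoded genes left out of the total, the share was 0.615% in CTR and between 0.634% with HTyr and 0.690% with SE. These are group means. With that total, HTyr replicate 1 lay below the CTR libraries, so CTR and treated ranges were no longer apart. Only TOMM40L and TIMM13 rose with all 4 treatments, where 4.66% of all tested genes did, and 0 fell with all 4, where 3.19% did. TOMM40 and VDAC3 rose with 3 treatments, TOMM5 and TIMM8B with 2, and TOMM6, TIMM10B and TIMM21 with 1, while 28 members were called with none.

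**Figure D2:**
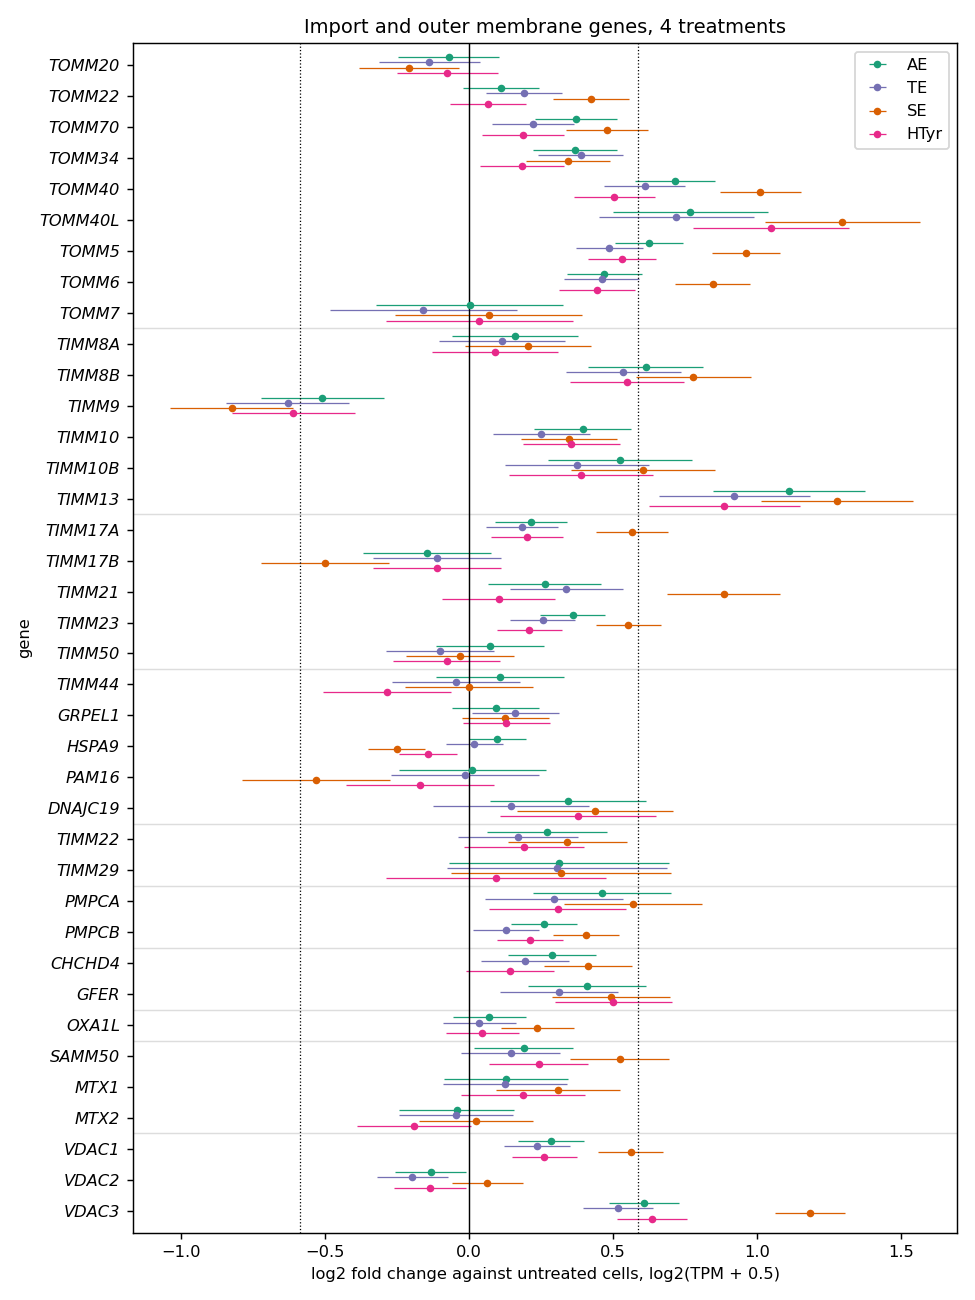
Log2 fold change against CTR, on the log2(TPM + 0.5) scale, for each of the 38 members (rows, grouped by role) with AE, TE, SE and HTyr; lines are 95% confidence intervals from limma and dotted lines mark a fold change of 1.5 either way. The SE points stand furthest right for TOMM40, TOMM5, TOMM6, TIMM21 and VDAC3, the TIMM9 points all lie left of 0, and those of TOMM20, TOMM7 and TIMM50 lie near it.

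The TOM complex is the entry gate of the outer membrane, and its called genes were the channel TOMM40, its paralog TOMM40L and the small subunits TOMM5 and TOMM6, while the small subunit TOMM7 and the receptors TOMM20, TOMM22 and TOMM70 were called with no treatment. Of the 9 genes in this group, 3 rose in the mean of the 4 treatments, 4 with SE, 3 with AE, 2 with TE and 1 with HTyr. Over all tested genes, 10.4% rose in the mean, 17.0% with SE, 10.7% with AE, 7.46% with TE and 7.80% with HTyr. TOMM40 (ENSG00000130204, chr19:44890569-44903689 on the plus strand) encodes the channel itself. It stood at 48.8, 47.4 and 47.6 TPM in the CTR libraries, 74.9, 76.8 and 85.7 with AE, 75.8, 69.2 and 75.4 with TE, 100.05, 93.4 and 98.1 with SE and 63.3, 71.1 and 70.6 with HTyr. All 12 treated libraries lay above the CTR libraries, and the SE libraries lay above those of the other treatments. The log2 fold changes of TOMM40, each with its standard error (s.e.), were 1.01 with SE, 0.72 with AE, 0.61 with TE and 0.51 with HTyr (s.e. 0.065 for each), and 0.71 (s.e. 0.051, adjusted p = 1.01e-07) in the treatment mean, a 1.64-fold higher level. Those with AE, TE and SE were called. The call with TE was lost under median-ratio scaling (0.56), under quantile normalization (0.58) and with the length and GC trend removed (0.54). TOMM40L (ENSG00000158882, chr1:161225939-161230746 on the plus strand), a paralog of the channel with much lower abundance, was singled out after its values were seen because it rose with all 4 treatments. Its libraries were at 3.95, 4.59 and 3.37 TPM in the CTR libraries, 7.04, 8.05 and 6.21 with AE, 7.10, 6.91 and 6.45 with TE, 9.64, 11.8 and 9.86 with SE and 8.23, 8.21 and 9.70 with HTyr. The highest CTR library lay under the lowest treated one, and the log2 fold changes were 1.30 with SE, 0.77 with AE, 0.72 with TE and 1.05 with HTyr (s.e. 0.13 for each), with 0.96 (s.e. 0.099, adjusted p = 2.88e-06) in the mean. The ratio of TOMM40 to TOMM40L was 12.3 ± 1.90 in CTR (SD, n = 3) and 7.88 ± 0.712 with HTyr, without overlap. It was 11.3 ± 2.21 with AE, 10.8 ± 0.841 with TE and 9.40 ± 1.34 with SE, each overlapping CTR, and the paralog's log2 fold change was the larger of the pair with each treatment.

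TOMM5 (ENSG00000175768, chr9:37582646-37592604 on the minus strand) encodes a small subunit that stays bound to the channel. Its level was 117, 129 and 126 TPM in the CTR libraries, 193, 195 and 186 with AE, 175, 181 and 167 with TE, 242, 238 and 245 with SE and 171, 176 and 191 with HTyr. The treated libraries all lay above the CTR ones, with SE highest. Its log2 fold changes were 0.96 with SE, 0.63 with AE, 0.49 with TE and 0.53 with HTyr (s.e. 0.054 for each), with 0.65 (s.e. 0.043, adjusted p = 4.47e-08) in the mean, and it was called with AE and SE. Without CTR replicate 1 the value with AE was 0.58, under the fold threshold. So it was under median-ratio scaling (0.53), under quantile normalization (0.54) and with the length and GC trend removed (0.58). With mitochondrially encoded and ribosomal protein genes left out, the calls with AE (0.57) and in the mean (0.58) were lost. Quantile normalization also lost the call in the mean (0.57). TOMM6, another small subunit, ranged from 198 to 356 TPM over the group means and was called with SE and with no other treatment, at 0.85 (s.e. 0.061, adjusted p = 6.65e-08). Its mean over the treatments was 0.56, which became 0.59 and was called without CTR replicate 3. TOMM7, the most abundant member at 590.3 to 688 TPM, did not follow its partners. Its log2 fold change was -0.01 (s.e. 0.12, adjusted p = 0.942) in the mean, with a 95% confidence interval of -0.27 to 0.24.

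TOMM20 (ENSG00000173726, chr1:235109341-235128837 on the minus strand) encodes the receptor that recognises presequences. The study measured its protein to follow the amount of mitochondria. Its mRNA was at 191, 165 and 196 TPM in the CTR libraries, 160.3, 175 and 189.7 with AE, 177, 156 and 168 with TE, 146, 167 and 163 with SE and 175, 168 and 180.01 with HTyr. The CTR and treated libraries overlapped, and the group means ran from 159 to 184 TPM with CTR the highest. The log2 fold changes were -0.21 with SE, -0.07 with AE, -0.14 with TE and -0.08 with HTyr (s.e. 0.081 for each), with -0.12 (s.e. 0.064, adjusted p = 0.129) in the mean and a 95% confidence interval of -0.26 to 0.02. No call was made for TOMM20, and with SE the adjusted p was 0.0455 with a lower level. The ratio of TOMM40 to TOMM20 within a library, which does not depend on the total, was 0.262 ± 0.0231 in CTR and ranged from 0.362 to 0.683 over the treated libraries, against 0.243 to 0.288 in the CTR ones. TOMM22, the central receptor, had group means of 68.8 to 92.3 TPM, and TOMM70, the receptor for carrier precursors, 33.6 to 47.0 TPM. Their log2 fold changes in the mean of the 4 treatments were 0.20 (s.e. 0.048, adjusted p = 0.00373) and 0.32 (s.e. 0.053, adjusted p = 0.000213). TOMM34, a cytosolic cochaperone that hands over precursors, had 32.2 to 42.2 TPM and 0.32 (s.e. 0.054, adjusted p = 0.000223). TOMM34 overlaps PABPC1L, which lies on the other strand and was at 73.0 TPM over all libraries, and whether the quantification used the strand of the reads is not stated.

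**Figure D3:**
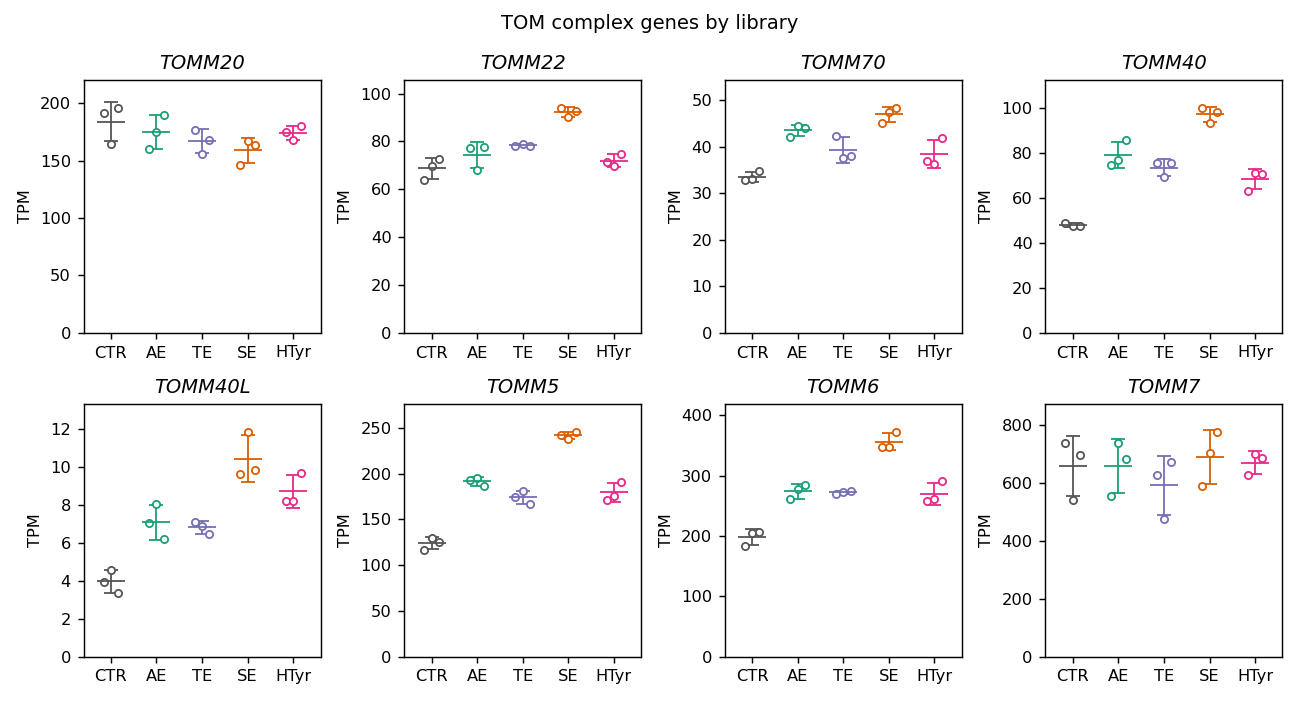
TPM of 8 TOM complex genes in each library (circles) of the 5 groups, with the mean and SD of 3 libraries (lines); each axis starts at 0. TOMM40, TOMM40L, TOMM5 and TOMM6 lie above CTR in every treated library, with the highest mean with SE, while TOMM20 and TOMM7 overlap CTR.

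The small TIM proteins form hexamers that shield hydrophobic precursors in the intermembrane space, and their genes held both the called rise that was largest in the mean and the 1 called fall. Of the 6, TIMM13 and TIMM8B rose and TIMM9 fell in the mean of the 4 treatments. Over all genes, 10.4% rose and 7.43% fell. TIMM13 (ENSG00000099800, chr19:2425625-2427586 on the minus strand), which pairs with TIMM8A in its hexamer, was at 22.4, 20.9 and 28.0 TPM in the CTR libraries, 53.1, 48.7 and 52.9 with AE, 48.4, 41.6 and 45.6 with TE, 53.0, 58.5 and 62.7 with SE and 37.8, 52.4 and 43.1 with HTyr. Every treated library exceeded the highest CTR library, while SE and AE overlapped each other. Its log2 fold changes were 1.28 with SE, 1.11 with AE, 0.92 with TE and 0.89 with HTyr (s.e. 0.12 for each), all called, with 1.05 (s.e. 0.097, adjusted p = 9.71e-07) in the mean, a 2.07-fold higher level. Its partner TIMM8A had group means of only 18.6 to 21.5 TPM, with a log2 fold change of 0.14 (s.e. 0.080, adjusted p = 0.158). The ratio of TIMM13 to TIMM8A was 1.28 ± 0.224 in CTR (SD, n = 3) and ran from 1.89 to 2.95 in the treated libraries, above the CTR range of 1.10 to 1.53.

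TIMM8B (ENSG00000150779, chr11:112084800-112086798 on the minus strand), a relative of TIMM8A, stood at 36.7, 40.2 and 43.5 TPM in the CTR libraries, 58.0, 61.6 and 65.2 with AE, 62.5, 56.6 and 56.1 with TE, 65.3, 68.2 and 74.0 with SE and 51.4, 59.8 and 66.1 with HTyr. The CTR libraries lay below all treated ones, and the SE libraries lay above those with AE and TE and overlapped those with HTyr. The log2 fold changes of TIMM8B were 0.78 with SE, 0.61 with AE, 0.54 with TE and 0.55 with HTyr (s.e. 0.092 for each), with 0.62 (s.e. 0.073, adjusted p = 9.98e-06) in the mean, and the calls were those with AE and SE and in the mean. Those with AE and in the mean lay close to the fold threshold. Both were lost under median-ratio scaling (0.52 and 0.56) and under quantile normalization (0.54 and 0.56). With mitochondrially encoded and ribosomal protein genes left out, both were lost too (0.56 and 0.55). The call with AE was also lost with the length and GC trend removed (0.57). Without CTR replicate 1 the value was 0.55 with AE and 0.56 in the mean, without AE replicate 3 it was 0.57 with AE, and without CTR replicate 3 it was 0.59 with TE and 0.61 with HTyr, both then called. Without HTyr replicate 1 it was 0.64 with HTyr and called. TIMM8B overlaps NKAPD1 on the other strand, at 25.5 TPM over all libraries.

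TIMM9 (ENSG00000100575, chr14:58408495-58427531 on the minus strand) went the other way. It was at 72.6, 62.5 and 63.4 TPM in the CTR libraries, 43.7, 43.5 and 51.9 with AE, 37.2, 45.5 and 45.4 with TE, 33.7, 40.4 and 37.4 with SE and 44.4, 43.4 and 41.4 with HTyr. All 12 treated libraries lay below the 3 CTR libraries, and the SE libraries lay below those with AE and HTyr and overlapped those with TE. The log2 fold changes were -0.82 with SE, -0.51 with AE, -0.63 with TE and -0.61 with HTyr (s.e. 0.099 for each), with -0.64 (s.e. 0.078, adjusted p = 1.34e-05) in the mean, a level 0.641 times that of CTR. Those with TE, SE and HTyr were called. The call in the mean was lost without CTR replicate 1 (-0.57), as were those with TE (-0.56) and HTyr (-0.54). It was lost with TE without TE replicate 1 (-0.53) and with HTyr without HTyr replicate 3 (-0.58), and with AE it was made without AE replicate 3 (-0.59). With the length and GC trend removed, the calls with TE (-0.58) and HTyr (-0.58) were lost. Under median-ratio scaling (-0.61) and quantile normalization (-0.61), one with AE was made. In each of these the adjusted p stayed under 0.05 and the fold threshold was missed or passed. TIMM9 shares a stretch with KIAA0586 and TOMM20L on the other strand, at 9.60 and 0.05 TPM over all libraries.

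TIMM9 and TIMM10 build 1 hexamer together, yet their mRNAs stood on opposite sides of CTR. TIMM10 had group means of 52.3 to 69.1 TPM and a log2 fold change of 0.34 (s.e. 0.062, adjusted p = 0.000462) in the mean, with all 12 treated libraries above the CTR ones and no call. The ratio of TIMM9 to TIMM10 was 1.26 ± 0.0547 in CTR (SD, n = 3), 0.560 ± 0.0726 with SE, 0.672 ± 0.0327 with AE, 0.687 ± 0.0885 with TE and 0.645 ± 0.0406 with HTyr. The CTR libraries ran from 1.20 to 1.30 and the treated ones from 0.512 to 0.744, so in CTR TIMM9 was the more abundant of the pair and in every treated library the less abundant. TIMM10B, which docks the hexamer on the TIM22 translocase, had 13.4 to 20.6 TPM, and rose with SE at 0.60 (s.e. 0.12, adjusted p = 0.000613). That call was lost without CTR replicate 2 (0.50) and without SE replicate 3 (0.56), and one with AE was made without CTR replicate 1 (0.63). The SE call was also lost under median-ratio scaling (0.49), under quantile normalization (0.52) and with mitochondrially encoded and ribosomal protein genes left out (0.49).

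**Figure D4:**
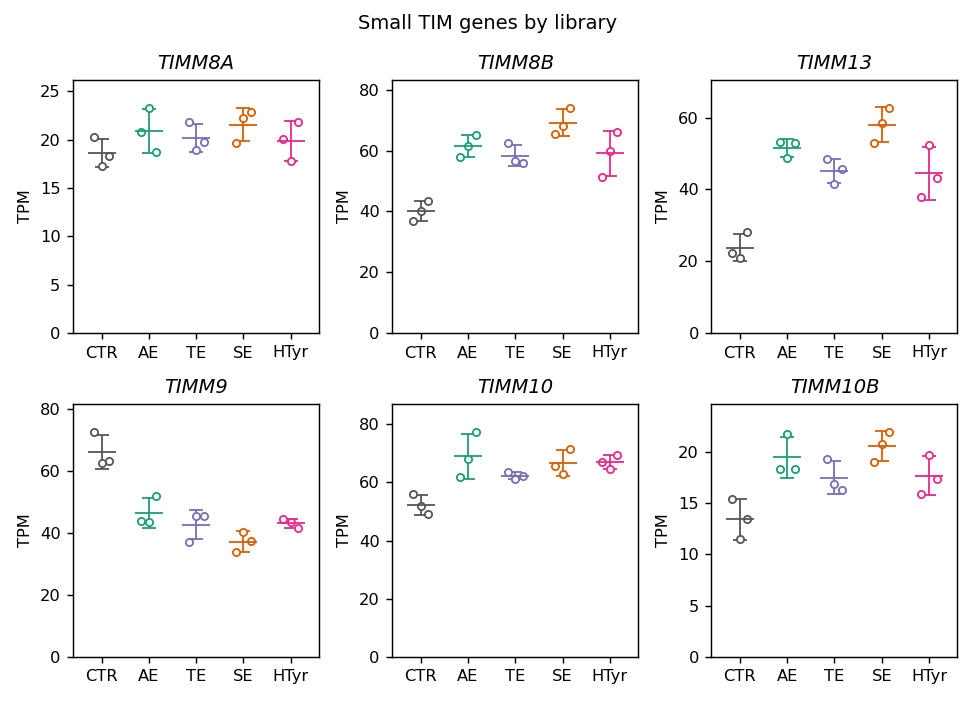
TPM of the 6 small TIM genes in each library (circles) of the 5 groups, with the mean and SD of 3 libraries (lines); each axis starts at 0. TIMM13 is above CTR and TIMM9 below CTR in every treated library, while TIMM8A overlaps CTR.

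The TIM23 channel takes precursors with a presequence through the inner membrane. The SE libraries lay above all others in TIMM21, TIMM17A and TIMM23, and below all others in TIMM17B. Of 5 genes, limma called 0 in the mean of the 4 treatments, where 17.9% of all genes were called. TIMM21 was called with SE alone, where 17.0% of all genes rose and 11.0% fell. TIMM21 (ENSG00000075336, chr18:74148523-74160531 on the plus strand), which links the TOM and TIM23 complexes, was at 27.9, 26.6 and 31.7 TPM in the CTR libraries, 36.5, 32.2 and 34.9 with AE, 40.8, 36.3 and 32.4 with TE, 50.1, 55.9 and 54.2 with SE and 30.9, 28.9 and 32.7 with HTyr. The SE libraries lay above all others, and those with HTyr overlapped CTR. Its log2 fold changes were 0.88 with SE, 0.26 with AE, 0.34 with TE and 0.10 with HTyr (s.e. 0.091 for each), with 0.40 (s.e. 0.072, adjusted p = 0.000432) in the mean. TIMM23 (ENSG00000265354, chr10:45972489-46003742 on the plus strand), the channel-forming subunit, stood at 57.0, 59.2 and 57.6 TPM in the CTR libraries, 70.7, 75.2 and 77.8 with AE, 67.9, 71.5 and 68.4 with TE, 88.4, 82.6 and 84.6 with SE and 64.1, 68.8 and 68.2 with HTyr. All treated libraries lay above CTR, with SE highest. The log2 fold changes were 0.55 with SE, 0.36 with AE, 0.26 with TE and 0.21 with HTyr (s.e. 0.052 for each), with 0.34 (s.e. 0.041, adjusted p = 1.16e-05) in the mean, under the fold threshold.

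TIMM17A (ENSG00000134375, chr1:201955503-201970664 on the plus strand) and TIMM17B are alternative subunits of the same channel. TIMM17A was at 74.1, 74.2 and 77.2 TPM in the CTR libraries, 82.1, 89.5 and 90.4 with AE, 87.8, 82.4 and 86.4 with TE, 105, 116 and 114 with SE and 85.9, 82.3 and 91.4 with HTyr. Every treated library exceeded CTR, and the SE libraries exceeded the rest. Its log2 fold changes were 0.56 with SE, 0.21 with AE, 0.19 with TE and 0.20 with HTyr (s.e. 0.058 for each), with 0.29 (s.e. 0.046, adjusted p = 0.00013) in the mean, and without SE replicate 1 the SE value was 0.61 and called. TIMM17B, at group means of 11.8 to 16.9 TPM, had -0.50 (s.e. 0.10, adjusted p = 0.00104) with SE and -0.22 in the mean, with no call. Without CTR replicate 2 the SE value was -0.59 and called, and under median-ratio scaling of the libraries it was -0.61 and called. The ratio of TIMM17A to TIMM17B was 4.49 ± 0.464 in CTR (SD, n = 3) and 9.50 ± 0.442 with SE, where no library overlapped, while the other treatments ran from 5.52 ± 0.414 with TE to 5.79 ± 0.724 with AE. TIMM17B overlaps PQBP1 on the other strand, at 46.3 TPM over all libraries. TIMM50, the receptor of the channel, was at 75.1 to 85.1 TPM and -0.03 (s.e. 0.069, adjusted p = 0.709) in the mean.

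None of the 5 genes of the import motor, which pulls precursors into the matrix, was called with any treatment by limma. Their median log2 fold change was -0.00 with SE, 0.10 with AE, 0.02 with TE and -0.14 with HTyr. Over all genes, 17.0% rose and 11.0% fell with SE, 10.7% and 5.81% with AE, and 7.46% and 5.26% with TE. With HTyr 7.80% rose and 8.45% fell. DNAJC19 (ENSG00000205981), a J protein of the motor, stood at 28.8, 30.2 and 30.4 TPM in the CTR libraries, 39.9, 32.1 and 42.7 with AE, 33.6, 38.2 and 27.9 with TE, 42.0, 43.0 and 36.8 with SE and 35.0, 37.7 and 44.4 with HTyr. Only 1 treated library, with TE, was under the highest CTR value, and the log2 fold change was 0.33 (s.e. 0.099, adjusted p = 0.0145) in the mean. The 9 numbered pseudogenes of DNAJC19 summed to 5.35% of its TPM, so reads may be shared among them. GRPEL1 (ENSG00000109519), the nucleotide exchange factor, was at 65.9, 77.7 and 78.0 TPM in the CTR libraries, 76.5, 79.8 and 79.5 with AE, 83.5, 83.8 and 80.0 with TE, 86.1, 79.6 and 76.0 with SE and 82.0, 76.2 and 84.0 with HTyr. The AE, SE and HTyr libraries overlapped CTR and those with TE lay above it, and the log2 fold change was 0.13 (s.e. 0.055, adjusted p = 0.0706) in the mean. HSPA9, the chaperone at the core of the motor, ran from 356 to 454 TPM over the group means. It was at -0.25 (s.e. 0.046, adjusted p = 0.00044) with SE and -0.14 (s.e. 0.046, adjusted p = 0.0261) with HTyr, beside 0.10 with AE. PAM16, a regulator of the J protein, was at 37.0 to 54.2 TPM and had -0.53 (s.e. 0.12, adjusted p = 0.00198) with SE. Without CTR replicate 2 (-0.64) or SE replicate 2 (-0.59) it was called, as it was under median-ratio scaling (-0.65). TIMM44, the anchor of the motor, was at 48.3 to 63.5 TPM, with -0.28 (s.e. 0.10, adjusted p = 0.043) with HTyr and -0.06 in the mean.

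Among the downstream machines, called changes were 0 of 10 genes with each treatment by limma, and the values were mostly above 0. Over all genes, 17.0% rose and 11.0% fell with SE, 10.7% and 5.81% with AE, and 7.46% and 5.26% with TE. With HTyr these shares were 7.80% and 8.45%. TIMM22 (ENSG00000177370), the carrier translocase, was at 6.84, 6.81 and 7.01 TPM in the CTR libraries, 9.28, 7.68 and 8.34 with AE, 7.63, 7.18 and 8.70 with TE, 8.52, 8.41 and 9.71 with SE and 7.42, 8.51 and 7.92 with HTyr. The treated libraries did not overlap CTR, with a log2 fold change of 0.24 (s.e. 0.076, adjusted p = 0.0166) in the mean. TIMM22 overlaps ABR on the other strand, at 29.6 TPM over all libraries. Its partner TIMM29 was at 9.94 to 12.6 TPM, with 0.26 (s.e. 0.14, adjusted p = 0.143) and overlapping libraries. PMPCB (ENSG00000105819), the catalytic subunit of the peptidase that removes presequences, was at 50.3, 49.1 and 49.7 TPM in the CTR libraries, 62.3, 58.4 and 58.4 with AE, 54.5, 54.0 and 54.6 with TE, 67.5, 68.8 and 62.2 with SE and 55.5, 57.2 and 60.6 with HTyr. Again no treated library reached down to CTR, with 0.25 (s.e. 0.042, adjusted p = 0.000216) in the mean. PMPCB overlaps PSMC2 on the same strand and DNAJC2 on the other, at 57.0 and 31.6 TPM over all libraries. PMPCA, the other subunit, was at 71.0 to 105 TPM and 0.41 (s.e. 0.088, adjusted p = 0.00156). With SE it stood at 0.57, just under the fold threshold, and it was called without CTR replicate 1 (0.64), CTR replicate 2 (0.62), SE replicate 2 (0.65) or SE replicate 3 (0.60).

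The disulfide relay traps small cysteine-rich proteins, the small TIMs among them, in the intermembrane space. GFER (ENSG00000127554), its sulfhydryl oxidase, was at 21.9, 26.8 and 25.3 TPM in the CTR libraries, 28.8, 36.4 and 33.7 with AE, 28.9, 30.7 and 32.4 with TE, 32.5, 37.6 and 34.5 with SE and 34.8, 33.9 and 36.3 with HTyr. All treated libraries lay above CTR, with 0.43 (s.e. 0.075, adjusted p = 0.000311) in the mean. CHCHD4, the receptor of the relay, was at 21.6 to 29.0 TPM and 0.26 (s.e. 0.056, adjusted p = 0.00166), and its 4 pseudogenes summed to 3.12% of its TPM. OXA1L (ENSG00000155463), which inserts proteins into the inner membrane from the matrix side, was at 111, 100.2 and 115 TPM in the CTR libraries, 119, 118 and 106 with AE, 109, 113 and 111 with TE, 126, 131 and 127 with SE and 113, 109 and 114 with HTyr. Only the SE libraries lay clear of CTR, with 0.24 (s.e. 0.059, adjusted p = 0.00376), beside 0.10 in the mean. SAMM50 (ENSG00000100347), the core of the SAM complex, was at 29.4, 31.5 and 33.2 TPM in the CTR libraries, 33.8, 36.2 and 37.6 with AE, 38.8, 31.0 and 34.7 with TE, 43.6, 45.1 and 47.0 with SE and 35.1, 38.4 and 38.0 with HTyr. Here too the SE libraries lay above all others, with 0.52 (s.e. 0.080, adjusted p = 8.8e-05) with SE and 0.28 (s.e. 0.063, adjusted p = 0.00245) in the mean. MTX1 (ENSG00000173171), a metaxin of the same complex, was at 45.2, 36.3 and 43.9 TPM in the CTR libraries, 43.7, 46.8 and 46.0 with AE, 47.5, 40.8 and 48.4 with TE, 44.8, 53.2 and 57.8 with SE and 47.1, 47.4 and 47.9 with HTyr. CTR and treated libraries overlapped, and the log2 fold change was 0.19 (s.e. 0.079, adjusted p = 0.0629) in the mean. The other metaxin, MTX2, was at 40.9 to 47.6 TPM and -0.06 (s.e. 0.073, adjusted p = 0.497).

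The VDAC proteins are the channels by which metabolites pass the outer membrane, and the rarest of the 3 mRNAs in CTR had the largest log2 fold change. VDAC3 (ENSG00000078668) was at 70.7, 72.9 and 76.7 TPM in the CTR libraries, 109.6, 116 and 110.4 with AE, 109, 101 and 107 with TE, 166, 169 and 167 with SE and 114, 107 and 123 with HTyr. All treated libraries lay above CTR, and the SE libraries lay above those of every other treatment. Its log2 fold changes were 1.18 with SE, 0.61 with AE, 0.52 with TE and 0.64 with HTyr (s.e. 0.056 for each), with 0.74 (s.e. 0.045, adjusted p = 2.05e-08) in the mean, a 1.67-fold higher level. With SE it was 2.27-fold. Calls were made with AE, SE and HTyr, and the one with AE was lost without CTR replicate 1 (0.58) or AE replicate 2 (0.58). It was also lost under median-ratio scaling (0.51), under quantile normalization (0.52) and with the length and GC trend removed (0.58). With mitochondrially encoded and ribosomal protein genes left out, the calls with AE (0.55) and HTyr (0.57) were both lost. VDAC1 (ENSG00000213585, chr5:133971871-134004975 on the minus strand) was at 169, 174 and 179 TPM in the CTR libraries, 207, 205 and 226 with AE, 211, 205 and 199.9 with TE, 254, 264 and 254 with SE and 196, 212 and 219 with HTyr. Treated and CTR libraries did not overlap, and the log2 fold changes were 0.56 with SE, 0.29 with AE, 0.24 with TE and 0.26 with HTyr (s.e. 0.053 for each), with 0.34 (s.e. 0.042, adjusted p = 1.67e-05) in the mean and no call. With mitochondrially encoded genes left out, the SE value of VDAC1 was 0.59 and called. VDAC2, the most abundant of the 3 in CTR, was at 229 to 274 TPM, with 0.06 with SE, -0.13 with AE, -0.20 with TE and -0.14 with HTyr (s.e. 0.058 for each) and -0.10 (s.e. 0.046, adjusted p = 0.0843) in the mean.

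Within the summed VDAC TPM of a library, VDAC3 held 14.4 ± 0.569% in CTR (SD, n = 3), 23.9 ± 0.467% with SE, 19.9 ± 0.852% with AE, 19.5 ± 0.263% with TE and 20.4 ± 1.38% with HTyr. VDAC2 held 51.4 ± 1.42% in CTR and 38.4 to 43.6% over the treated libraries. VDAC1 held 34.2 ± 0.849% and 36.5 to 39.1%. For each of the 3 genes the CTR and treated ranges were apart, and these shares do not depend on how the whole library was scaled. Pseudogenes of VDAC2 summed to 2.03% of its TPM.

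**Figure D5:**
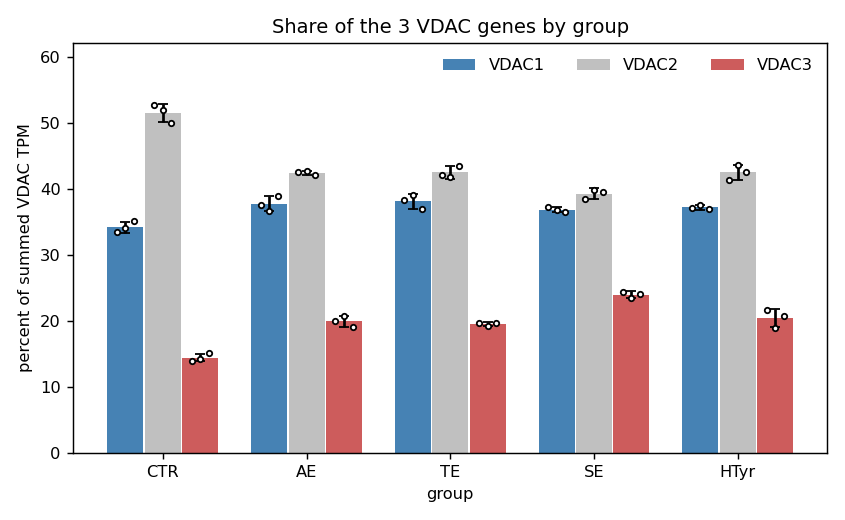
Percent of the summed VDAC TPM held by VDAC1, VDAC2 and VDAC3 in each library (circles) of the 5 groups, with the mean (bars, from 0) and SD (lines) of 3 libraries. VDAC2 goes from 51.4% in CTR to between 39.3% and 42.5% in the group means of the treatments, while VDAC3 goes from 14.4% to between 19.5% and 23.9%.

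Do the treatments differ from each other in these genes? The 6 pairs of treatments were compared directly, at the same dose and time. Each pair is counted by the same rule as above. Against HTyr, SE had 1 member called (background 7.36%) and 18 at an adjusted p under 0.05 alone, 16 of them higher with SE (22.0% and 6.17% of all genes were higher and lower). Against AE it had 1 (background 4.72%) and 16, 12 of them higher with SE (9.81% and 7.71% of all genes), and against TE 1 (background 8.36%) and 20, 17 of them higher with SE (17.2% and 9.24%). The median log2 difference of the members was 0.22 for SE against HTyr, 0.11 against AE and 0.23 against TE, beside 0.13, 0.01 and 0.06 over all genes. AE against HTyr gave 0 calls with limma (background 1.34%), with 2 members at an adjusted p under 0.05 alone, both higher with AE (8.06% and 1.06% of all genes were higher and lower), and 7 at an unadjusted p under 0.05 (26.2% of all genes). TE against HTyr gave 0 (background 0.705%), with 0 (2.32% and 0.973%) and 5 (19.6%), and AE against TE gave 0 (background 0.0873%), with 0 (0.188% and 0.0470%) and 3 (11.8%). The AE and TE values of the 38 members differed by -0.08 to 0.20 on the log2 scale.

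TIMM21 was the member called in SE against HTyr, at 0.78 (s.e. 0.091, adjusted p = 4.4e-05), and in SE against AE, at 0.62 (s.e. 0.091, adjusted p = 0.000359). Against TE it stood at 0.55 (s.e. 0.091, adjusted p = 0.000591). The call against AE was lost without AE replicate 2 (0.57), and one against TE was made without TE replicate 1 (0.63) or SE replicate 1 (0.59). VDAC3 was called in SE against TE, at 0.67 (s.e. 0.056, adjusted p = 1.98e-06), with a 95% confidence interval of 0.55 to 0.79. It stood at 0.58 (s.e. 0.056, adjusted p = 1.17e-05) against AE and 0.55 (s.e. 0.056, adjusted p = 1.59e-05) against HTyr, just under the fold threshold, and was called there without AE replicate 2 (0.60) and HTyr replicate 3 (0.60). TOMM40 was at 0.51 (s.e. 0.065, adjusted p = 9.02e-05) in SE against HTyr. TOMM40L was at 0.58 (s.e. 0.13, adjusted p = 0.00383) in SE against TE, and was called there without TE replicate 1 (0.60), TE replicate 2 (0.59), SE replicate 1 (0.63) or SE replicate 3 (0.61), and against AE without AE replicate 2 (0.62). PAM16 was lower with SE than with AE, at -0.54 (s.e. 0.12, adjusted p = 0.00645), and was called there without AE replicate 1 (-0.62) or SE replicate 2 (-0.60).

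Other genes of protein import and of mitochondrial membranes were taken from 5 lists written by hand. Cytosolic chaperones, which hold precursors unfolded before import, had 4 of 11 called higher and none lower on average over the treatments, with a list median of 0.18 beside 0.05 over all genes. They were 5 with SE, 3 with AE, 2 with TE and 0 with HTyr. Over all tested genes, 10.4% rose in the mean, 17.0% with SE, 10.7% with AE, 7.46% with TE and 7.80% with HTyr. DNAJA1, a cytosolic J protein, was at 0.82 (s.e. 0.048, adjusted p = 1.35e-08) and HSP90AB1 at 0.68 (s.e. 0.040, adjusted p = 1.58e-08) in the mean, and HSPA8 and HSP90AA1, named after their values were seen, at 1.03 and 0.81. Of 17 matrix chaperones and proteases, 2 were called higher and 0 lower in the mean, with a median of 0.01. Of all genes, 10.4% rose and 7.43% fell. MIPEP, a peptidase that trims imported precursors a second time, was at 1.13 (s.e. 0.067, adjusted p = 1.71e-08), and HSPE1, the cochaperonin of the matrix, at 0.85 (s.e. 0.052, adjusted p = 2.39e-08). With SE, HSPE1 was at 1.71 and its partner HSPD1, named after its values were seen, at 1.15, both called. This list had 3 higher and 1 lower with SE (17.0% and 11.0% of all genes). With AE it had 3 higher and 0 lower (10.7% and 5.81%).

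The remaining lists held few calls in the mean of the 4 treatments, where 10.4% of all genes rose and 7.43% fell. With SE, 17.0% rose and 11.0% fell. Of 14 tested members of 15 other import factors, 0 were called in the mean by limma, with a median of 0.16, and 2 with SE. These were AIFM1, which docks the relay receptor CHCHD4, at 0.93 (s.e. 0.079, adjusted p = 3.6e-07), and COX18, an inner membrane insertase, at 0.71 (s.e. 0.12, adjusted p = 0.000292). Of 10 genes of MICOS and the prohibitins, which shape the inner membrane, 0 were called in the mean by limma, with a median of 0.21, and 3 with SE (PHB1, APOO and MICOS10, the last 2 named after their values were seen). PHB1 was at 0.35 (s.e. 0.051, adjusted p = 6.66e-05) and PHB2 at 0.30 (s.e. 0.047, adjusted p = 0.000139) in the mean. Of 16 other outer membrane genes, 1 was called lower and 0 higher in the mean, with a median of 0.07. By treatment, 2 were higher and 1 lower with AE (10.7% and 5.81% of all genes). With SE 2 were higher and 1 lower, and with HTyr 1 and 1 (7.80% and 8.45% of all genes). The gene that fell in the mean was MIGA1, a protein of mitochondrial fusion, at -0.63 (s.e. 0.080, adjusted p = 1.99e-05). FIS1, an adaptor of fission, stood at 0.58 (s.e. 0.061, adjusted p = 3.43e-06).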

How the data were processed

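Libraries were prepared by the authors with a stranded kit after poly(A) capture, aligned to GRCh38 with STAR and quantified with RSEM on Ensembl 104 (versions of both tools: not given in the sources used here). What the authors deposited is 1 TPM value per gene and library, given to 2 decimals and not scaled further across libraries. TPM keep no depth, so no count model or counting error was possible. Samples were grouped by their descriptions, and 0 columns were left unused.

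Genes reaching 1 TPM in 3 or more of the 15 libraries (14899) were taken to log2(TPM + 0.5) and fitted with limma 3.58.1 in R 4.3.3 (5 group means, mean-variance trend, 10 residual and 3.42 prior degrees of freedom), with p-values adjusted over all of them by Benjamini-Hochberg. The test was checked on simulated data. Tables and figures used Python 3.11.15, pandas 2.3.3, numpy 2.4.6, scipy 1.17.1 and matplotlib 3.10.9. Gene positions are from GENCODE 44 on GRCh38, and promoters from RefSeq on GRCh38.p14.

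The members and lists were chosen with earlier results of these data known. Values in every library were given for TOMM20, for the 2 members of each role group whose mean over the treatments had the smallest adjusted p (1 in groups of 1 or 2), for the called member that went against the rest, and for members called between treatments. From each list the 2 genes of smallest adjusted p were named. Alternatives were other pseudocounts, filters, scalings and weights, no trend, a length and GC correction, a replicate block, fits of the compared groups only and leaving out libraries or mitochondrially encoded genes. Leaving out ribosomal protein genes too was chosen after seeing the data. Values the study published were compared with the deposited TE and SE columns as a check of their names, and none is reported. Set tests and amino acid sequences were not used.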

Additional observations from a re-analysis of the deposited data

Results flagged for a closer look

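A pair of genes differed between treatments by the direct test of the difference in the same limma model, with Benjamini-Hochberg adjustment. TIMM21 was higher with SE than with HTyr by 0.78 on the log2 scale and higher with SE than with AE by 0.62, and in both pairs the 3 SE libraries lay above the 3 others. The difference from AE lost its call under quantile normalization (0.57), with mitochondrially encoded and ribosomal protein genes left out (0.56), with the length and GC trend removed (0.56) and without AE replicate 2 (0.57). VDAC3 was higher with SE than with TE by 0.67, again without overlap, and lost its call under quantile normalization (0.53), with mitochondrially encoded and ribosomal protein genes left out (0.57) and with the length and GC trend removed (0.55). The fold threshold, not the adjusted p, was missed in these cases, and the cause was not tested. PAM16, lower with SE, was called in SE against TE under quantile normalization (-0.60) and median-ratio scaling (-0.59). With mitochondrially encoded and ribosomal protein genes left out, it was called against TE (-0.62) and AE (-0.61). Except under median-ratio scaling, PAM16 was then the only member called in the pair.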

How the results depend on the processing

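Under the alternatives no called member changed sign. Of the 34 calls made for members against CTR or between treatments, 21 held in every alternative run and 13 were lost in at least 1. In each loss the adjusted p stayed at or under 0.00412 and the fold threshold was missed. Where a count moved, the cause was not tested.

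By adjusted p alone, with no fold threshold, the members called higher were 21 with AE, 18 with TE, 25 with SE, 19 with HTyr and 23 in the mean of the 4 treatments, and those called lower 1, 2, 5, 3 and 2. The same rule gave 2 members for AE against HTyr, 18 for SE against HTyr, 16 for SE against AE and 20 for SE against TE. Members higher with AE were 3 under median-ratio scaling, quantile normalization, mitochondrially encoded and ribosomal protein genes left out, and the length and GC trend removed, in place of 6. In the mean, members higher were 5 under median-ratio scaling and 4 under quantile normalization, in place of 6. They were also 4 with mitochondrially encoded and ribosomal protein genes left out. Members higher with SE were 12 with mitochondrially encoded genes left out, in place of 9, adding TIMM17A (0.59), PMPCA (0.60) and VDAC1 (0.59). They were 11 with the length and GC trend removed, adding PMPCA and GFER, and 8 under median-ratio scaling. With TE, members higher were 2 with that trend removed and under both scalings, in place of 3. With HTyr they were 2 with ribosomal protein genes left out too, in place of 3. Members lower with AE were 1 under median-ratio scaling and under quantile normalization, in place of 0. Members lower with SE were 3 under median-ratio scaling (TIMM9, TIMM17B and PAM16), 3 with mitochondrially encoded and ribosomal protein genes left out, and 2 under quantile normalization, in place of 1. With the length and GC trend removed, 0 members were lower with TE and 0 with HTyr, in place of 1 each. Between treatments, SE against HTyr gave 2 with that trend removed, SE against AE gave 0 under quantile normalization and with that trend removed, and SE against TE gave 2 with a pseudocount of 0.1, under median-ratio scaling, with that trend removed and with array weights, in place of 1 each.

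Leaving out each library in turn, the members called higher ranged from 4 to 6 with AE, 3 to 4 with TE and 9 to 10 with SE. With HTyr they ranged from 3 to 4, and in the mean from 5 to 7. Those called lower ranged from 0 to 1 with AE, TE and HTyr and in the mean, and from 1 to 3 with SE. The calls ranged from 1 to 2 for SE against HTyr, 1 to 2 for SE against AE and 1 to 3 for SE against TE.

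As a percent of the library, the summed TPM of the members became 0.407, 0.471, 0.448, 0.510 and 0.447 in CTR, AE, TE, SE and HTyr with mitochondrially encoded genes left out, 0.615, 0.670, 0.646, 0.690 and 0.634 with ribosomal protein genes left out too, and 0.350 in CTR, 0.395 with SE and 0.385 with HTyr under median-ratio scaling. That scaling moved the median log2 fold change of all genes with SE from 0.09 to -0.02.

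Same-numbered libraries did not deviate together as a set (r from -0.39 to 0.45 over 30 pairs, with 7 over 0.1), so no pairing by number was seen. The check cannot show that a weaker pairing is absent, because the shared deviation given below could mask it. A replicate block left the mean over treatments with 6 members higher and 1 lower, as without it. Pairs with other numbers had r from -0.43 to 0.47 over 60 pairs, with 24 over 0.1. AE replicate 1, TE replicate 3, SE replicate 1 and HTyr replicate 3 went together, at 0.36 to 0.47. Neither fit accounts for this shared deviation, and its cause was not tested. Fitting only the groups compared was not run for the mean, which uses all groups. With unknown depth no counting error can be given, also for genes at low level such as TOMM40L and TIMM22. The rounding of TPM to 2 decimals is small beside their SD in CTR, 0.610 and 0.108 TPM.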

Other observations

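Several members start head to head with another gene, on the opposite strand and within 1000 bases, and 11 such pairs had both genes tested. The pairs were looked for after the members' values were known, and they are given as values only. In the mean of the 4 treatments against CTR, limma called 4 of the 11 neighbours (background 17.9%), and in none of these 4 pairs was the member called. YIPF2, whose start lies 130 bases from that of TIMM29, was at 42.1 ± 4.12 TPM (SD, n = 3) in CTR and 25.8 ± 4.27 TPM (n = 12) in treated libraries, a log2 fold change of -0.71 (adjusted p = 3.14e-06), beside 0.26 for TIMM29. THBS3, 356 bases from MTX1, was at -0.72 (adjusted p = 0.00372), beside 0.19 for MTX1. The other neighbours called were the noncoding OXA1L-DT (-0.79, adjusted p = 0.0366) and an unnamed gene beside TOMM22 (0.59, adjusted p = 0.0219), both at about 1 TPM.

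The members called in the mean that had such a neighbour were TIMM9 and TIMM8B. KIAA0586, 146 bases from TIMM9, was at 9.56 ± 1.13 TPM in CTR and 9.60 ± 1.41 TPM in treated libraries, a log2 fold change of -0.00 (adjusted p = 0.991), beside -0.64 for TIMM9. SDHD, a subunit of respiratory complex II that starts 26 bases from TIMM8B, was at 0.20 (adjusted p = 0.0247), beside 0.62 for TIMM8B. ARFIP2, 22 bases from TIMM10B, was at -0.02 (adjusted p = 0.715), beside 0.47 for TIMM10B.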
